A study of Mus musculus with 6 samples.

Results

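Genes of the angiotensin and endothelin pathways were described in cultured cardiac fibroblasts (CFs). They were the 8 genes *Agt*, *Agtr1a*, *Ace*, *Agtrap*, *Edn1*, *Ednra*, *Ednrb* and *Ece1*, chosen by symbol as components of 2 profibrotic hormone systems, out of 19446 genes in the table. All 8 were found, and all 8 were among the 15948 genes with enough reads to be tested. The CFs had been grown out of atrial explants collected from littermate C57BL/6J mice, on fibronectin in IMDM with serum. The study compared 3 libraries from wild type (WT) mice with 3 from CharmeKO mice, all labelled as 5 weeks old, with no treatment in either group. For the explants the study's methods give several littermates and a range of ages around 5 weeks. They do not say how many animals each library drew on. In CharmeKO mice a polyadenylation signal had been inserted into the locus of *Charme*, a long non-coding RNA of cardiac and skeletal muscle. The study's methods state that experiments used independently isolated primary lines, while the labels do not tie each library to a line or litter. The p-values measure the spread between these libraries.

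Angiotensin II is made in steps. Angiotensinogen (*Agt*) is cut by renin to angiotensin I, and angiotensin-converting enzyme (*Ace*) turns this into angiotensin II, which acts on fibroblasts mainly through the type 1 receptor (*Agtr1a*). The receptor-associated protein *Agtrap* binds the tail of this receptor and promotes its internalisation. Endothelin-1 (*Edn1*) is released as a precursor that endothelin-converting enzyme 1 (*Ece1*) cleaves, and it binds the receptors A (*Ednra*) and B (*Ednrb*). Both peptides are known in the heart as stimuli of myofibroblast activation and matrix production.

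The libraries held 38330019 to 46797446 reads each. The feature CUFF405, taken by inference as the *Charme* entry added by the authors, collected 5 to 15 reads per WT library and 0 to 6 per CharmeKO library, and the 0 reads of CharmeKO 1 allow up to 0.0671 counts per 1000000 reads (CPM; such limits cover counting error only). Sums for the fibroblast markers (all 12 analysed) ran from 35815.2 to 71824.5 CPM among WT and from 43185.1 to 54053.3 CPM among CharmeKO libraries. Of these, *Col1a1* was at 9285 to 20004 CPM. Some markers of the list were low and uneven between libraries. *Tcf21* was at 5.07 CPM in CharmeKO 2 and 41.04 CPM in CharmeKO 1, and *Postn* at 12.9 CPM in CharmeKO 3 and 243 CPM in WT 2. The defining endothelial markers were near 0, with 2 to 6 reads of *Pecam1* and 0 to 45 reads of *Cdh5* per library. Whole-list sums for the endothelial markers (11 of 14 analysed, none at 0 in all libraries) ranged from 122 to 344 CPM among WT and from 176 to 296 CPM among CharmeKO libraries, most of which was *Eng*.

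The promoters of the members that varied most between libraries are shown first, *Ace*, *Ednrb* and *Agt*, together with that of *Ece1*, the one member that followed the replicate number past the adjusted threshold. They are RefSeq windows on GRCm38.p6, cut to the bases before the annotated start that lie in no GENCODE exon, and printed on the strand of the gene. Capitals mark the TATA box (TATAAA) and the GC box (GGGCGG), each searched on both strands. Of all 32851 promoter windows of 250 bases, 12.4% held the first and 32.7% the second motif. An AP-1 site (TGANTCA, in 6.75% of windows), an E-box (CACGTG, 6.02%) and a GATA site (AGATAA, 9.99%) were also searched and had no match in these 4 windows.
Ace, chr11:105967698-105967944, plus strand: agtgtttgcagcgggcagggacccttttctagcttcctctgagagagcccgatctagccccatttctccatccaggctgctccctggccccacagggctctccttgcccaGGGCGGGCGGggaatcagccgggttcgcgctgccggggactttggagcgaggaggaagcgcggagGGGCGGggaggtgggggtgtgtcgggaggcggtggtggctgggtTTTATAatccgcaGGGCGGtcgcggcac
Ednrb, chr14:103843702-103843951, minus strand: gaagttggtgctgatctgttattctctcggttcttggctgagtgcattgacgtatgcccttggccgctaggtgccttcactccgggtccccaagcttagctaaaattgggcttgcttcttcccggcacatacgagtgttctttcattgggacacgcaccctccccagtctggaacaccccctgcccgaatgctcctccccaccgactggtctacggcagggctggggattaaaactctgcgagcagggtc
Agt, chr8:124569707-124569956, minus strand: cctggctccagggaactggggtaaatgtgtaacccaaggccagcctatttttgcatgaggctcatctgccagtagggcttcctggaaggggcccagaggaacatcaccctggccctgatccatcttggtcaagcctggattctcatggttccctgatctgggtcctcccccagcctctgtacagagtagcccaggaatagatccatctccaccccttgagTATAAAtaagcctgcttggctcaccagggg
Ece1, chr4:137861987-137862236, plus strand: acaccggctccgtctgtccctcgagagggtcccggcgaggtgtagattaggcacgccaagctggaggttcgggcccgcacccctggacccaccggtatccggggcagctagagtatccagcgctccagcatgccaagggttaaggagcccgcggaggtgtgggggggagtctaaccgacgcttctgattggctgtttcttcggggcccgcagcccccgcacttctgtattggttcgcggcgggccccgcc
The *Ace* window held 4 GC boxes, the outermost pair of which overlap, and a TATA box 31 bases before the start. *Agt* held a TATA box 30 bases before its start, and the *Ednrb* window and the *Ece1* window shown held none of the 5 motifs. Another of the *Ece1* starts has a GC box 138 bases before it. The *Ednrb* window lies within the gene as GENCODE annotates it, ahead of the RefSeq start. RefSeq lists 2 starts for *Ace*, the second of which lies inside the gene, and 4 for *Ece1*. The gene-level values below add up all transcripts of a gene and cannot separate these starts. A match is a description of the letters and does not show binding.

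The question was whether these genes differ between CharmeKO and WT CFs. None of the 8 did so past the adjusted threshold of 0.05 (0 genes by limma, edgeR, DESeq2 or a DESeq2 model with replicate number added), and 0 had an unadjusted p under 0.05 in any of these tests. Over all genes tested, limma called 0%, and 0.897% had an unadjusted p under 0.05 (5.37% with the replicate block). The limma adjusted p of each of the 8 was 0.9999, and with the replicate number as a block it was 0.7997 to 0.935. The limma estimates ranged from -0.28 for *Agt* to 0.52 for *Ednrb* in log2 fold change, on the scale of log2(normalised reads + 1). On this scale the added 1 weighs most on low genes. In limma no member differed by a log2 fold change of 1 or more, as 5.04% of all genes did. With edgeR 3 of the 8 did so, *Ace* at 1.72, *Ednrb* at 1.54 and *Agt* at -1.52, where 5.37% of all genes did. DESeq2 without the replicate number gave these 3 the same values to 2 decimals. With the replicate number added, DESeq2 gave 0.42 for *Ace*, 0.57 for *Ednrb* and -0.28 for *Agt*, near the limma estimates. These 3 members have the widest spans between libraries. Of the 8, 5 were above 0 (50.4% of all genes tested) and their median was 0.24, beside 0.0022 over all genes tested. WT and CharmeKO values overlapped for all 8, whereas they did not for 4.11% of all genes. In all 8 the same-numbered pairs moved in mixed directions, while 16.4% of all genes were higher and 14% lower in all 3 pairs.

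**Figure D1:**
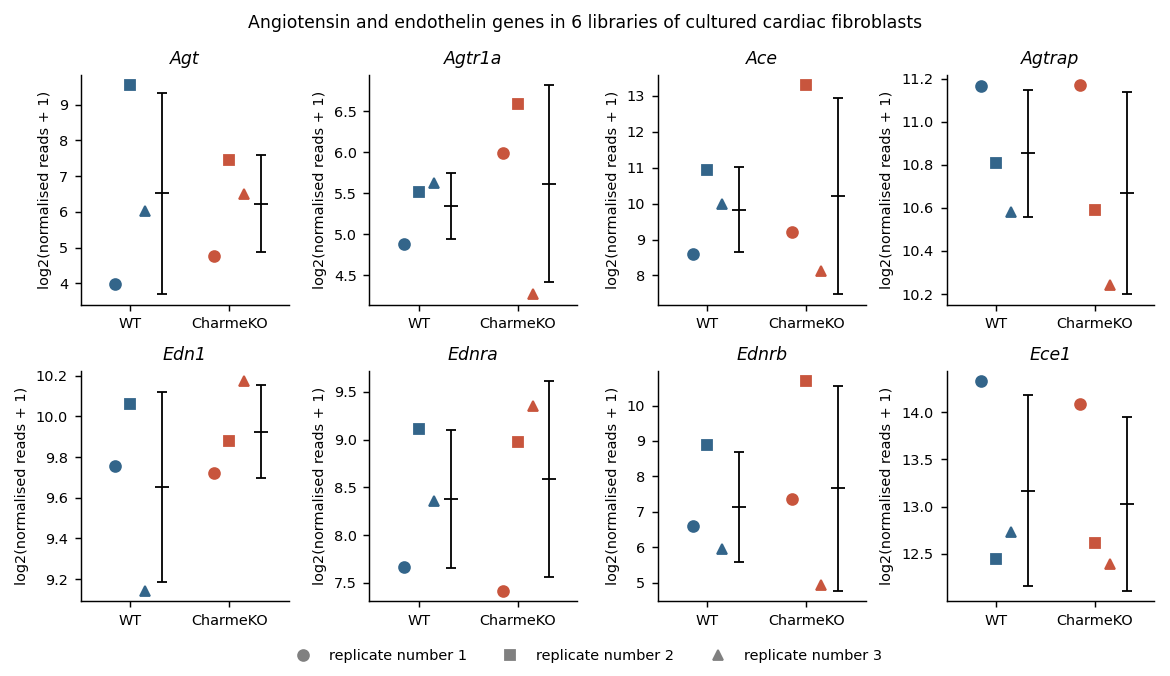
Expression of the 8 genes as log2(normalised reads + 1) in each library of WT (blue) and CharmeKO (red), with the mark showing the replicate number and the black bar the mean ± SD of 3 libraries. WT and CharmeKO overlap in every panel, and *Ece1* is highest in both libraries numbered 1 (20549.9 and 17351 normalised reads).

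The order of the genes was read from levels per length, in reads per kilobase of annotated exon and 1000000 reads (RPKM), since longer genes collect more reads. *Ece1* was the most expressed, with a median over the 6 libraries of 30.2 RPKM and a highest value of 91.2 RPKM, and lay above the next gene without overlap. *Edn1* (10.4, 6.24 to 13.2) and *Agtrap* (9.82, 7.02 to 12.8) followed and overlapped, *Edn1* being the higher in 3 of 6 libraries. *Ace* came next at 3.55 RPKM with a range of 1.30 to 48.9, then *Ednra* at 1.88 (0.723 to 2.93). The lowest were *Agt* at 0.975 (0.184 to 9.69), *Ednrb* at 0.712 (0.170 to 9.83) and *Agtr1a* at 0.402 (0.161 to 0.874). Apart from *Ece1*, each gene overlapped with its neighbour in this order. Farther apart in it, the lowest values of *Edn1* and *Agtrap* lay above the highest of *Ednra* and *Agtr1a*, and the lowest of *Ace* lay above the highest of *Agtr1a*. The converting enzyme and ligand of the endothelin system were thus measured at higher levels per length than either of its receptors in the medians.

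Among the angiotensin genes, the precursor *Agt* (ENSMUSG00000031980, chromosome 8, 124556534 to 124569706, GRCm38) had 14.8, 749.5 and 63.7 normalised reads in WT 1, 2 and 3 and 26.0, 175 and 88.7 in CharmeKO 1, 2 and 3. The highest value was that of WT 2, and the lowest in each group was that of the library numbered 1. The means were 276 ± 411 in WT and 96.6 ± 74.8 in CharmeKO (SD, n = 3), and the log2 fold change was -0.28 with a 95% interval of -3.75 to 3.19. It was 1.24 without WT 2 and 0.46 without CharmeKO 1, and -1.52 with edgeR, which models the reads themselves.

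*Ace* (ENSMUSG00000020681, chromosome 11, 105967945 to 105989964) had 383, 1949.6 and 1011 normalised reads in WT and 586, 10132 and 279 in CharmeKO. CharmeKO 2 stood apart from the other CharmeKO libraries, and the library numbered 2 was the highest of each group. The log2 fold change was 0.38 (95% interval -2.86 to 3.62). Without CharmeKO 2 it was -1.17 and without WT 1 it was -0.24, and edgeR gave 1.72. The log2 difference between same-numbered libraries was 0.61 for number 1, 2.38 for number 2 and -1.85 for number 3.

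The receptor gene *Agtr1a* (ENSMUSG00000049115, chromosome 13, 30336441 to 30382867) was the lowest of the 8. It had 28.6, 44.8 and 48.3 normalised reads in WT and 62.5, 95.4 and 18.3 in CharmeKO, from 21 to 97 reads per library. CharmeKO held both the highest and the lowest value. The log2 fold change was 0.27 (95% interval -1.34 to 1.89), and -0.21 without CharmeKO 2; edgeR gave 0.53. One annotated gene overlaps it on the same strand, and reads shared with its close paralogue *Agtr1b* are lost in counting, so its level is uncertain. *Agtr1b* itself had 2 to 19 reads per library.

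*Agtrap* (ENSMUSG00000029007, chromosome 4, 148077061 to 148088031) was the steadiest member. Its normalised reads were 2299.5, 1794 and 1530.3 in WT and 2304, 1543 and 1211 in CharmeKO, a 1.90-fold range from highest to lowest. Within each group the libraries stood in the same order by number. The log2 fold change of -0.18 had the interval -0.86 to 0.50, and it was 0.029 without CharmeKO 3. The log2 ratio of *Agtr1a* to *Agtrap*, the receptor against its associated protein, was -5.51 ± 0.690 in WT and -5.05 ± 0.993 in CharmeKO (SD, n = 3 libraries each, two-sided exact permutation p = 0.5, adjusted p over 5 ratios = 0.9). The difference of 0.46 was -0.069 without CharmeKO 2. With 3 against 3 libraries the smallest p this test can give is 0.1. The ratio of *Ace* to *Agt*, the enzyme against the precursor of its substrate, was 3.32 ± 1.71 in WT and 3.98 ± 2.14 in CharmeKO (exact permutation p = 0.6, adjusted p = 0.9). Its difference of 0.66 became -0.31 without WT 2 and -0.27 without CharmeKO 2.

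In the endothelin system, the ligand gene *Edn1* (ENSMUSG00000021367, chromosome 13, 42301476 to 42307990) had 865, 1066 and 565 normalised reads in WT and 843, 939.9 and 1152 in CharmeKO. WT 3 was the lowest and CharmeKO 3 the highest of the 6. The means were 832 ± 252 and 978 ± 158 (SD, n = 3). The log2 fold change was 0.27 (95% interval -0.40 to 0.94) and ranged from 0.015 to 0.47 when single libraries were left out, the lowest without WT 3. *Edn1* was the one member that stayed above 0 in all 6 of these fits. The other 7 changed direction in at least 1, as did 63.3% of all genes tested. These fits held no replicate block, and leaving out a library kept its same-numbered partner in the other group. A change of direction in them can therefore come from the replicate number as well as from genotype, and these cannot be told apart. For *Edn1* the log2 differences within pairs were -0.036, -0.18 and 1.03, so that pair 3 alone lay well above 0.

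*Ece1* (ENSMUSG00000057530, chromosome 4, 137862237 to 137965229) was measured at 20549.9, 5588 and 6797 normalised reads in WT and at 17351, 6259 and 5391 in CharmeKO. The libraries numbered 1 were the highest of each group and the other 4 lay close together. The log2 fold change of -0.14 (95% interval -1.65 to 1.38) was 0.44 without WT 1, 0.071 without CharmeKO 2 and 0.18 without CharmeKO 3. The log2 ratio of *Edn1* to *Ece1* was -3.52 ± 1.09 in WT and -3.11 ± 1.12 in CharmeKO (exact permutation p = 0.7, adjusted p = 0.9). Its difference of 0.41 became -0.12 without WT 1 and -0.032 without CharmeKO 3.

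The receptor genes had separate profiles. *Ednra* (ENSMUSG00000031616, chromosome 8, 77663031 to 77724464) had 202, 551 and 327 normalised reads in WT and 170.2, 502 and 654 in CharmeKO. Both libraries numbered 1 were below the other 4. Its log2 fold change of 0.21 (95% interval -1.23 to 1.64) was -0.15 without WT 1 and -0.18 without CharmeKO 3. *Ednrb* (ENSMUSG00000022122, chromosome 14, 103814625 to 103844402) had 95.5, 475 and 60.4 normalised reads in WT and 164, 1642 and 29.6 in CharmeKO, a 55.5-fold range. In both groups the library numbered 2 was the highest and that numbered 3 the lowest. The log2 fold change was 0.52 (95% interval -3.07 to 4.11), -0.99 without CharmeKO 2, -0.082 without WT 3 and 1.54 with edgeR.

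The balance of the receptors followed from this. The log2 ratio of *Ednra* to *Ednrb* was 1.07, 0.21 and 2.42 in WT and 0.049, -1.71 and 4.42 in CharmeKO. This ratio is of reads and is not corrected for length. Per length *Ednrb* exceeded *Ednra* in WT 2 (2.72 against 2.46 RPKM), CharmeKO 1 (0.897 against 0.723 RPKM) and CharmeKO 2 (9.83 against 2.34 RPKM), and *Ednra* exceeded *Ednrb* in the other 3 libraries. In both groups the ratio was highest in the library numbered 3. The means of 1.23 ± 1.11 and 0.92 ± 3.16 differed by less than the spread between libraries (exact permutation p = 0.9, adjusted p = 0.9), and the difference of -0.31 became 0.28 on leaving out WT 3, 0.12 on leaving out CharmeKO 1 and 1.001 on leaving out CharmeKO 2. The log2 ratio of *Edn1* to *Ednra* was 1.28 ± 0.712 in WT and 1.34 ± 0.834 in CharmeKO (exact permutation p = 0.8, adjusted p = 0.9). The libraries numbered 1 held its highest values in both groups, 2.09 in WT and 2.30 in CharmeKO, against 0.78 to 0.95 in the others. Its difference of 0.064 became -0.099, -0.18 and -0.42 on leaving out WT 2, WT 3 or CharmeKO 1.

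**Figure D2:**
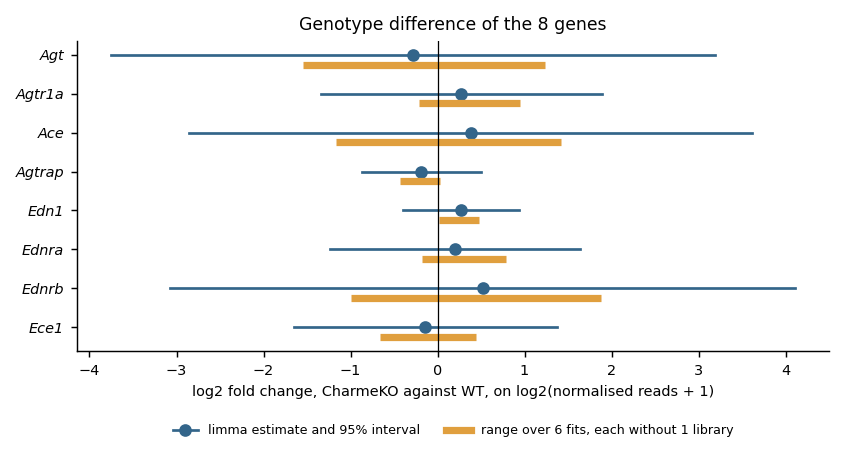
Log2 fold change of each gene, CharmeKO against WT, with the limma 95% interval (blue) and the range of the 6 fits that each left out 1 library (orange). Every interval includes 0, and the widest is that of *Ednrb* (-3.07 to 4.11). All of these fits held genotype as the only term, without the replicate block.

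In 7 of the 8 members more of the variance went with the replicate number, which has 3 levels, than with genotype, the exception being *Edn1*. The medians over all genes tested, 73.8% and 5.91%, stood in the same order, so this is not a trait of the members. The share of all genes with this order was not counted. The share of the variance of log2(normalised reads + 1) that went with genotype was 0.606% to 16.9%, highest for *Edn1*, beside a median of 5.91% over all genes tested. The share that went with the replicate number was 97.4% for *Ece1*, 89.0% for *Ednrb*, 87.9% for *Agtrap*, 86.9% for *Agt*, 83.3% for *Ednra* and 73.6% for *Ace*, but 37.0% for *Agtr1a* and 16.0% for *Edn1*, beside a median of 73.8% over all genes. Replicate numbers were taken to pair the libraries, and what same-numbered libraries share is not stated in the labels. A limma F test of the replicate number, added after the values had been seen, gave *Ece1* an adjusted p of 0.0361 and edgeR gave 0.0412, so that 1 of 8 members passed, where 8.65% of all genes tested passed with limma and 4.11% with edgeR. A single member is no more than a share near this background. The limma adjusted p was 0.0557 for *Ednrb*, 0.0596 for *Agtrap*, 0.0692 for *Agt*, 0.0866 for *Ednra*, 0.128 for *Ace*, 0.507 for *Agtr1a* and 0.722 for *Edn1*.

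**Figure D3:**
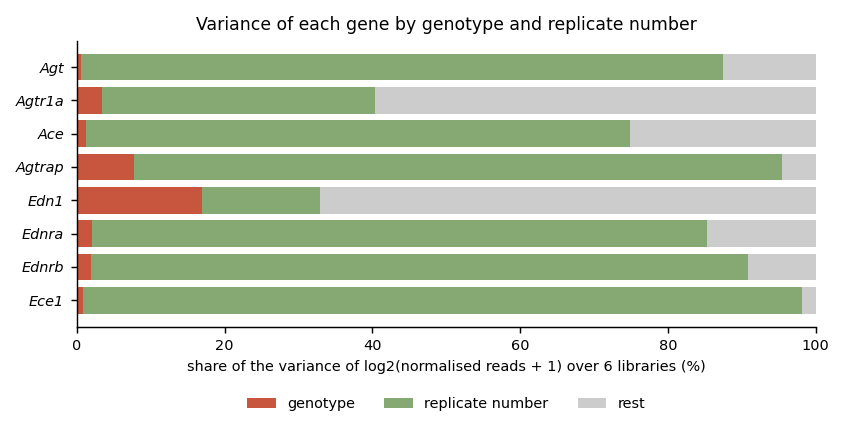
Share of each gene's variance over the 6 libraries (in %) that goes with genotype (red), with the replicate number (green) and with neither (grey). The green part is 97.4% for *Ece1* and 16.0% for *Edn1*.

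Markers of other cells moved with some of these profiles. For *Ece1*, the mesothelial and epicardial list (9 of 10 markers analysed, none at 0 in all libraries) reached 485 CPM in WT 1 and 515 CPM in CharmeKO 1, against 71.3 to 175 CPM in the other libraries. *Upk3b*, a mesothelial surface gene, was at 105 CPM in WT 1 and 106 CPM in CharmeKO 1 against 7.29 to 16.7 CPM elsewhere. *Msln*, *Upk1b*, *Lrrn4* and *Tbx18* were also highest in these libraries. The epicardial factor *Wt1* (38.3 CPM), *Bnc1* (53.5 CPM) and *Krt18* (1.93 CPM) were highest in CharmeKO 2, and *Krt19* in WT 3 (18.5 CPM). The peak was not particular to this list. *Csf1r* of the macrophage list was at 33.6 CPM in WT 1 and 33.7 CPM in CharmeKO 1, against 7.17 to 8.59 CPM elsewhere. *Vim* of the fibroblast list was at 4847 and 4752 CPM, against 1547 to 3104 CPM. For *Ednrb*, which is known for its role in melanocytes and glia, the Schwann and melanocyte list (7 of 9 analysed, none at 0 in all libraries) reached 33.2 CPM in WT 2 and 81.9 CPM in CharmeKO 2, against 12.6 to 17.5 CPM in the others. Within it *Mlana*, a melanosome gene, was at 31.7 CPM in CharmeKO 2 and 0.363 CPM in CharmeKO 3, and *Mitf* at 45.5 and 9.51 CPM, while *Sox10*, a neural crest factor, had 0 reads in CharmeKO 2, which allows up to 0.0753 CPM. Sums for the macrophage list (all 13 analysed) ran from 47.8 to 209.9 CPM among WT and from 25.7 to 448 CPM among CharmeKO libraries. Smooth muscle and pericyte markers (14 of 16 analysed) came to 1460 to 6315 CPM in WT against 874 to 3669 CPM in CharmeKO, and cardiomyocyte markers (5 of 10 analysed) to at most 18.6 CPM in any library. The part of these cells in the profiles was not tested. In such bulk libraries fewer cells of a type and less RNA per cell cannot be told apart.

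The genes closest to each member in profile were then listed, by the root mean square difference between log2 values centred over the 6 libraries. *Ace* was nearest to *Dlx4* (0.322), *Tspan18* (0.367) and *Dnah1* (0.401), all of which peaked in CharmeKO 2. *Ednrb* was nearest to *Gm45847* (0.430), *Unc93a2* (0.527) and *Irs3* (0.581), which have few reads in most libraries. *Agt* was nearest to *Gprin2* (0.245), *Igsf10* (0.402) and *E230016K23Rik* (0.454), each highest in WT 2. *Ece1* was nearest to *Lrrc7* (0.124), *Txnrd1* (0.133) and *Sat1* (0.134), all highest in the libraries numbered 1. *Ednra* was nearest to *Gm10658* (0.0731), *Sall2* (0.0957) and *Zfhx2* (0.0990), *Edn1* to *Tshz2* (0.0729), *Engase* (0.0901) and *Rnft2* (0.0904), and *Agtr1a* to *Dhdh* (0.191), *Plcxd1* (0.252) and *Tspyl3* (0.258). Of the members themselves, *Ace* and *Ednrb* differed by 0.787, while *Agtrap* differed by 0.510 from *Edn1* and by 0.527 from *Ece1*. With 6 libraries and 15948 genes, close profiles are found for any gene, and these are descriptions.

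**Figure D4:**
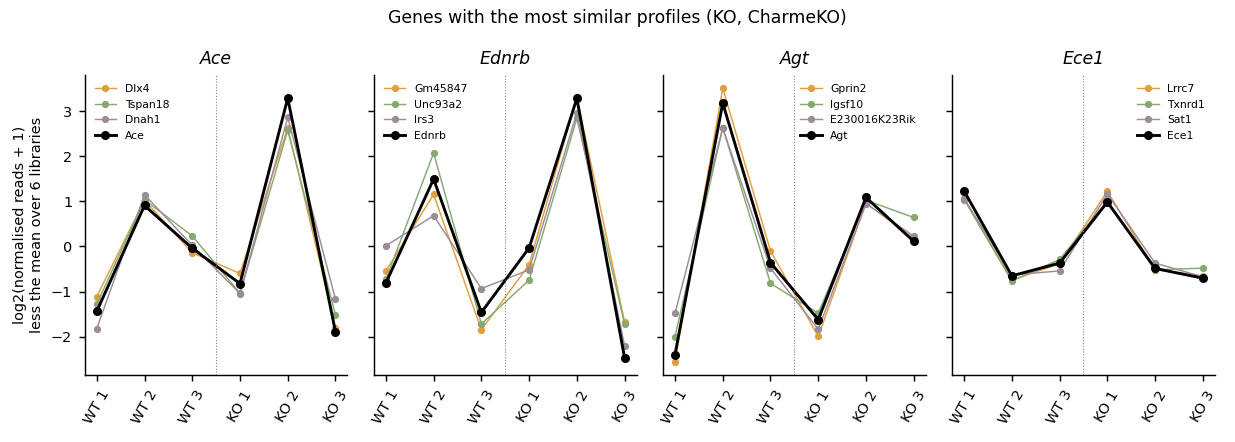
Log2(normalised reads + 1) of *Ace*, *Ednrb*, *Agt* and *Ece1* (black) and of the 3 genes nearest to each, less the mean over the 6 libraries, with WT left and CharmeKO (KO) right of the dotted line. *Ace* and *Ednrb* peak in CharmeKO 2, *Agt* in WT 2 and *Ece1* in both libraries numbered 1.

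Other genes of the pathways were examined for context, in lists of fixed membership. Of 18 further genes that make, activate or degrade angiotensin peptides, 15 were analysed and 13 were tested. The renin genes *Ren1* and *Ren2* and the chymase gene *Cma1* had no values among the 19446 genes. *Cpa3* and *Mcpt4* had at most 31 and 10 reads in a library and were not tested. None of the 13 passed the threshold in either direction (0 genes, 0 with an unadjusted p under 0.05). Of them 5 were above and 8 below 0, and the median log2 fold change was -0.070. *Lnpep*, the insulin-regulated aminopeptidase that binds angiotensin IV, had the lowest p of the list, at 3717, 3648 and 4203 normalised reads in WT against 1981.5, 1995 and 4533 in CharmeKO. CharmeKO 3 was the highest of the 6, and the log2 fold change of *Lnpep* was -0.56 (SE 0.339, limma adjusted p = 0.9999). The prorenin receptor *Atp6ap2* was at -0.087 (SE 0.429), the aspartic protease *Ctsd* at 0.30 (SE 0.359), and the aminopeptidases *Rnpep* at -0.12 and *Anpep* at 0.075. The peptidases *Thop1*, *Prcp*, *Prep*, *Nln* and *Dpp3* lay between -0.14 and 0.15, *Thop1* being higher in all 3 pairs and *Prcp* lower. The gene with the lowest estimate of the list, named after its values were seen, was *Mme*, the peptidase neprilysin. It had 115.2, 1431 and 141 normalised reads in the WT libraries against 97.1, 370 and 171 in CharmeKO (log2 fold change -0.64, SE 1.03). Direction changed with single libraries left out for *Atp6ap2* (WT 1 or CharmeKO 3), *Anpep* (WT 3 or CharmeKO 1), *Prcp* (CharmeKO 2), *Prep* (WT 2, CharmeKO 1 or 3), *Nln* (WT 1, CharmeKO 2 or 3) and *Dpp3* (CharmeKO 3).

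Of 9 other ligands, receptors and converting enzymes, 6 were analysed, while *Mas1*, *Edn2* and *Edn3* had no values. The 4 that were tested had 1 above and 3 below 0 and a median of -0.37. This median of 4 genes turned to 0.56 with edgeR and DESeq2, and to 0.20, 0.094 and 0.52 on leaving out WT 3, CharmeKO 1 or CharmeKO 3. *Ece2* was at -0.20 (SE 0.297) and changed direction without WT 2. The type 2 receptor *Agtr2* had 0, 4 and 22 reads among the WT and 0, 39 and 0 among the CharmeKO libraries, so that it was detected in the libraries numbered 2 and in WT 3 alone. The bradykinin receptor *Bdkrb1* had 21, 52 and 69 reads against 27, 217 and 5. For both, limma gave a value below 0 and edgeR one above 0 (*Agtr2* 0.44, *Bdkrb1* 0.69). *Bdkrb2* and *Kng1* had at most 59 and 12 reads in a library and were not tested.

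In the list of 38 genes of Gq and G12/13 signalling and receptor regulation, 0 passed the adjusted threshold in limma. An unadjusted limma p under 0.05 was found for 2 of the 38, beside 0.897% of all genes tested. There were 8 above and 30 below 0, where 50.4% of all genes were above 0, and the median was -0.14. Lower in all 3 pairs were 13 of the 38, beside 14% of all genes tested. The IP3 receptor *Itpr3*, a calcium channel of the endoplasmic reticulum, had 3645, 4357 and 3902 normalised reads in WT and 2761, 2215 and 2999.8 in CharmeKO. Its groups did not overlap, as for 3 genes of this list and 4.11% of all genes tested. The log2 fold change of *Itpr3* was -0.59 (SE 0.175, limma adjusted p = 0.9999). *Itpr2* was at -0.21 (SE 0.154). *Trpc6*, a cation channel activated downstream of these receptors, had 32, 21 and 29 reads in the WT libraries against 23, 0 and 0 in CharmeKO. These 0 reads allow up to 0.0753 CPM in CharmeKO 2 and 0.0641 CPM in CharmeKO 3. Its log2 fold change was -3.36 (SE 1.29, limma adjusted p = 0.9999), and -1.95 with edgeR. The beta-arrestin gene *Arrb2* was at 0.46 (SE 0.271) and higher in all 3 pairs.

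Among 24 genes known to be induced by angiotensin II or endothelin-1, 0 passed in limma and 0 had an unadjusted p under 0.05. There were 10 above and 14 below 0, with a median of -0.047. *Hbegf*, an EGF-family ligand, had 2356, 1200.1 and 1374 normalised reads in WT and 1440.2, 875 and 720.1 in CharmeKO. It was lower in all 3 pairs, by 0.71, 0.46 and 0.93 on the log2 scale, with a log2 fold change of -0.70 (SE 0.358, limma adjusted p = 0.9999). With the replicate number as a block, DESeq2 gave *Hbegf* an adjusted p of 0.0383, the one call among all list genes in that fit, which called 0.401% of all genes tested, while limma with the block called 0 list genes. The prostaglandin synthase *Ptgs2* had 10689, 3719 and 21646 normalised reads in WT against 7597, 5529 and 701 in CharmeKO. The groups overlapped and pair 2 moved up by 0.57, and the log2 fold change of -1.62 (SE 1.03) was -0.55 on leaving out CharmeKO 3. *Nox4*, an NADPH oxidase, was at -0.64 (SE 0.460) and at -0.27 without CharmeKO 3. *Acta2*, the actin of myofibroblasts, was at -1.60 (SE 1.19) and at -0.60 without CharmeKO 2. Groups overlapped for both.

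**Figure D5:**
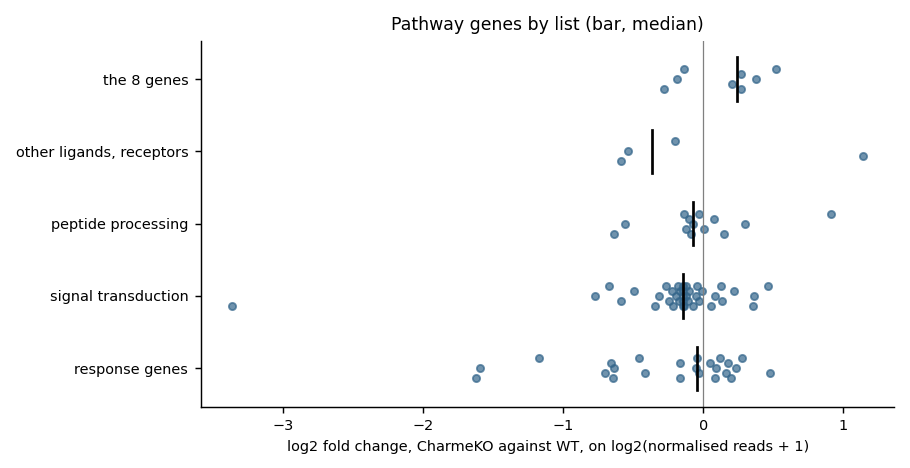
Log2 fold change of each tested gene, CharmeKO against WT, in the 8 genes and the 4 further lists, with the median of each list as a black bar. The medians lie between -0.37 and 0.24, and the point far to the left is *Trpc6*, with 0 reads in CharmeKO 2 and CharmeKO 3.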

How the data were processed

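RNA-seq was analysed in 6 libraries of cultured CFs, 3 WT and 3 CharmeKO, grouped by their titles. The authors aligned reads with STAR to a mouse assembly (the submitters' processing notes name GRCm39 and GRCh38 with no role), took STAR's gene counts for the reverse strand, using Ensembl gene models plus *Charme*, dropped sparsely covered genes and scaled the counts by DESeq2 size factors. What the authors deposited is therefore a scaled signal and not a count. Each value was a whole multiple of its library's smallest value above 0 (100% of 116676 values within 1e-06), so reads were recovered by division. Multi-mapping reads are left out of such counts.

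The members and lists were chosen with earlier results of these data known. As the values are normalised, limma 3.58.1 with a mean-variance trend (R 4.3.3) was run on log2(value + 1) for 15948 genes (2 or more libraries with 10 or more reads), with genotype as the only term, two-sided, adjusted by Benjamini and Hochberg at 0.05. edgeR 4.0.16 and DESeq2 1.42.0 on the recovered reads were alternatives, as were other pseudocounts, filters, scalings and leaving out each library. Scripts were tested on simulated data. Log2 ratios of 2 members were compared by exact permutation over libraries. Deviations of same-numbered libraries correlated with r = 0.762, 0.514 and 0.217 for numbers 1, 2 and 3 across genes, all above the minimum of 0.1, while libraries of different numbers gave -0.643 to 0.222, the highest for WT 2 with CharmeKO 3. By the rule of a minimum in every pair the numbers were taken to pair the libraries. The r of 0.217 for number 3 was below the 0.222 of WT 2 with CharmeKO 3. Pair 3 therefore rests on the numbering and not on this check.

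Coordinates and exon lengths are those of GENCODE M21 (GRCm38), matched by Ensembl ID for 99.6% of the table's genes, and are not the coordinates used in alignment. Promoter sequences are from RefSeq (GRCm38.p6, 7 of 8 members matched). Named genes were the 8 members, up to 4 genes with the lowest limma p of each pathway list, every gene with a mean of at least 1000 normalised reads in the lists of peptide processing and of ligands and receptors, and the 3 genes nearest in profile to each of the 7 members that spanned at least 1 log2 unit. Figures used matplotlib 3.10.9 under Python 3.11.15. Native CFs were not analysed here. 1 gene of the peptide processing list is counted but its values are not reported here.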

Additional observations from a re-analysis of the deposited data

How the results depend on the processing

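Among all genes tested, limma and 13 of 15 alternatives called 0. DESeq2 called 8 genes, and 64 when its model held the replicate block. None of the 8 members was called under any alternative. With the replicate block in limma the lowest adjusted p of a member was 0.7997 (*Agtrap*), and the block changed no call of a member or ratio (exact test of 3 pairs, p = 0.5 to 1, where 0.25 is the smallest possible). The count for the response genes was 1 (*Hbegf*, log2 fold change -0.70) with DESeq2 and the replicate block and 0 in the other settings. Pseudocounts, filters, scalings, edgeR and DESeq2 turned no member's direction, but edgeR moved *Ace*, *Agt*, *Ednrb* and *Agtr1a* by over 1.5 times, as given above. The stricter filter left *Agtr1a* untested.

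With single libraries left out, the log2 fold change ranged from -1.55 to 1.24 for *Agt*, -0.21 to 0.95 for *Agtr1a*, -1.17 to 1.42 for *Ace*, -0.44 to 0.029 for *Agtrap*, -0.18 to 0.79 for *Ednra*, -0.99 to 1.88 for *Ednrb* and -0.66 to 0.44 for *Ece1*. The difference in log2 ratio ranged from -2.06 to 1.001 for *Ednra* to *Ednrb*, -0.069 to 0.92 for *Agtr1a* to *Agtrap*, -0.31 to 1.83 for *Ace* to *Agt*, -0.12 to 1.04 for *Edn1* to *Ece1* and -0.42 to 0.47 for *Edn1* to *Ednra*. List medians ranged from -0.18 to 0.11 for peptide processing, -1.14 to 0.52 for ligands and receptors, -0.18 to -0.080 for signalling and -0.21 to -0.017 for the response genes. The median of ligands and receptors was 0.56 with edgeR and DESeq2 and -0.12 with a pseudocount of 8. Ranges that crossed 0 among named pathway genes were -0.46 to 0.25 for *Atp6ap2*, -0.74 to 0.94 for *Anpep*, -0.34 to 0.067 for *Prcp*, -0.28 to 0.28 for *Prep*, -0.21 to 0.11 for *Nln*, -0.24 to 0.033 for *Dpp3*, -0.37 to 0.085 for *Ece2*, -1.92 to 0.74 for *Bdkrb1* and -2.35 to 0.57 for *Agtr2*. *Prep* was at -0.0040 with DESeq2 and -0.00085 with its replicate block, *Nln* at 0.0026 with plain library totals, *Bdkrb1* at 0.69 with edgeR and 0.68 with DESeq2, and *Agtr2* at 0.44 and 0.43. Fits and ratios with a library left out held no replicate block, so their changes of direction mix the replicate number with genotype. The cause was not tested. Depth limits *Agtr1a* and *Agt* most among the members, with 21 to 97 and 15 to 702 reads per library.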
